A study of Mus musculus with 6 samples.

Results

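The 10 genes Wt1, Nr5a1, Lhx9, Gata4, Sox9, Dmrt1, Fgf9, Dhh, Amh and Inhbb act in the somatic cells of the fetal testis, in forming the gonad and in making its Sertoli cells. They were read here in chromatin of sorted cells labelled as male germ cells. A row of a deposited interval list belonged to a gene when the transcript in its annotation, or the transcript with the nearest promoter, was a transcript of that gene. All 10 genes had at least 1 row, out of 32462 genes named in any of the 4 lists, and they took 39 rows of H3K4me3 replicate 1, 3 of H3K4me3 replicate 2, 3 of TAF4b replicate 1 and 0 of TAF4b replicate 2.

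The libraries were made by CUT&RUN, in which a nuclease tethered to an antibody cuts out the DNA around its target, from prospermatogonia (the non-dividing male germ cells of the fetal testis) at E16.5. Every sample was male and Taf4b-wildtype, with the strain given as C57BL/6, while the parents are described as homozygous for an Oct4-EGFP transgene in the line B6;129S4-Pou5f1tm2Jae/J. Per the labels, live gonad cells were sorted by GFP signal, and the samples are called prospermatogonia without naming the sorted fraction. The antibodies were against TAF4b, a subunit of the promoter-binding complex TFIID, against H3K4me3, a histone mark of promoters, and IgG as a control, with 2 libraries each. Values of the IgG control were not used here, and no antibody background stands beside the values. How many embryos went into a library, and whether the replicates came from separate litters, is not given in the sources used here.

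Sertoli cells surround the germ cells of the testis cord and direct male development. Wt1, Nr5a1, Lhx9 and Gata4 build the early gonad, Sry then raises Sox9, and Sox9 together with Fgf9 commits the supporting cells to the Sertoli fate. Sertoli cells secrete Amh, which removes the female ducts, and Dhh, which signals to Leydig and peritubular cells. H3K4me3 is found at active promoters and also, beside H3K27me3, at silent promoters of developmental regulators. H3K27me3 and RNA were not part of the lists used, so neither state can be read from these data.

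The 4 lists differed widely in size, with 64891 and 1730 H3K4me3 regions and 7861 and 848 TAF4b peaks in replicates 1 and 2. The narrowest width that a region takes is 500 bp, which 27.8% and 57.9% of the regions have. Scores are the authors' values and were ranked within 1 list only, with rank 1 the highest. Read totals are not in these lists, so depth is unknown and an interval missing from a list is described as not listed. Of 15 germ cell genes, TAF4b replicate 1 was listed at the promoter of 8, against 24.9% of protein-coding genes. H3K4me3 replicate 1 was listed at the promoter of 7, near the 48.6% of protein-coding genes. A row of any class was named to 14 of the 15, against 78.4% of protein-coding genes. Genes of the somatic lists below also had such rows, so H3K4me3 gives no check of the sorted cells. Pou5f1, the gene behind the Oct4 reporter, had neither TAF4b nor H3K4me3 listed at its promoter, although an H3K4me3 region of 1451 bp was named to it.

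Sequences are shown first for the 3 TAF4b peaks named to these genes, because they carry all the TAF4b signal found there. The coordinates are of GRCm39, the letters are of the plus strand, and capitals mark matches to the GC box (GGGCGG or its reverse complement CCGCCC). Only 30 bases around the GC box are shown for Nr5a1, since its peak lies in exons annotated as untranslated. The Inhbb and Lhx9 peaks are shown whole.
Nr5a1 peak, chr2:38602252-38602281: tgcggtatccggGGGCGGaggcgcggttct
Inhbb distal peak, chr1:119371484-119371626: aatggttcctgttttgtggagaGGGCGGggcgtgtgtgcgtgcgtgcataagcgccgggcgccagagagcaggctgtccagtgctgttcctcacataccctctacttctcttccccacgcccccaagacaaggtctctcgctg
Lhx9 peak, chr1:138759199-138759341: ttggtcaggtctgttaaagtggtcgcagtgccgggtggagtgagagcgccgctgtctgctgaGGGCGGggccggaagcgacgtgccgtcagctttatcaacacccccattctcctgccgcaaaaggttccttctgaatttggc
Each of the 3 peaks held a GC box, a sequence present in 48.5% of the 7852 TAF4b replicate 1 peaks on the numbered chromosomes, X and Y. None of the 3 held a CCAAT box (CCAAT or ATTGG), which 39.5% of those peaks hold. With 3 peaks this is a description.

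Upstream sequences are shown for Wt1 and Sox9, whose starts lay under H3K4me3 regions of 3764 bp and 2203 bp. Width does not single out this pair. The starts of Lhx9, Fgf9, Inhbb and Gata4 also lay under regions wider than that of Sox9, and their windows are not shown. Each is the 250 bases before the canonical start in GENCODE M39, 5′ to 3′ on the gene's strand (plus for both). Capitals mark every match to a GC box, a CCAAT box, a GATA site (AGATAA or TTATCT) or a SOX site (AACAAT or ATTGTT).
Wt1, chr2:104956375-104956624: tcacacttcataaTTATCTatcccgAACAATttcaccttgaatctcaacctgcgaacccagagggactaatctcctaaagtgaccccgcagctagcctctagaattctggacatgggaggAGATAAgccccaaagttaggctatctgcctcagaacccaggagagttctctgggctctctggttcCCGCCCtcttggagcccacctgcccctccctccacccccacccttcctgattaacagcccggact
Sox9, chr11:112672759-112673008: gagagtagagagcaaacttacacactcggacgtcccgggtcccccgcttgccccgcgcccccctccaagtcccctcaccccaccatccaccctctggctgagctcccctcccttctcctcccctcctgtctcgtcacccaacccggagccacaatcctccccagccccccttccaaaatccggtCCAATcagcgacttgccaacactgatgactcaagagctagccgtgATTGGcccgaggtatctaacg
The Wt1 window held a GC box, 2 GATA sites and a SOX site, and the Sox9 window 2 CCAAT boxes. Over the upstream windows of 21757 protein-coding genes, a GATA site was present in 9.61%, a SOX site in 9.66%, a CCAAT box in 36.5% and a GC box in 36.3%. Among the 10 genes, the GATA site was found at 2 (Wt1 and Gata4), the SOX site at 1 (Wt1), the CCAAT box at 5 and the GC box at 4. A TATA box (TATAAA or TTTATA) was found at 0 of 10 genes and at 11.9% of all genes. The core ACATTGT (or ACAATGT) of the DMRT1 motif was found at 0 of 10 and at 2.10% of all.

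In H3K4me3 replicate 1, 8 of the 10 genes had a region classed as promoter-TSS in the deposited annotation, a class that 48.6% of 21757 protein-coding genes had (called a promoter region here). The 8 were Wt1, Lhx9, Gata4, Sox9, Dmrt1, Fgf9, Dhh and Inhbb. The count was 4 when the list was reduced to its highest-scoring regions, as many as replicate 2 holds, and 1 in replicate 2 itself. The promoter region was 2000 bp wide or more in 6 of the 10 genes, a width that 8.44% of all 21757 protein-coding genes reached. Among the 10567 protein-coding genes with a promoter region, 1837 reached it, and among the 8 genes listed here, 6. The median of the widest promoter region was 2527 bp over the 8 genes and 1367 bp over the 10567 protein-coding genes with such a region. At 3000 bp or more there were 2 of the 10, Wt1 and Fgf9, against 1.31% of all protein-coding genes. Of the 10567 with a promoter region, 286 reached this width. Counting rows of any class, all 10 genes had a region (78.4% of protein-coding genes; 4 genes in the reduced list), 6 had one of 2000 bp or more (13.6%) and 3, with Lhx9 added, one of 3000 bp or more (2.21%). The 2000 and 3000 bp limits were set after the widths had been seen. No test was run on these counts and medians, since the genes were chosen with earlier results of these data known and genes are not replicates.

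**Figure D1:**
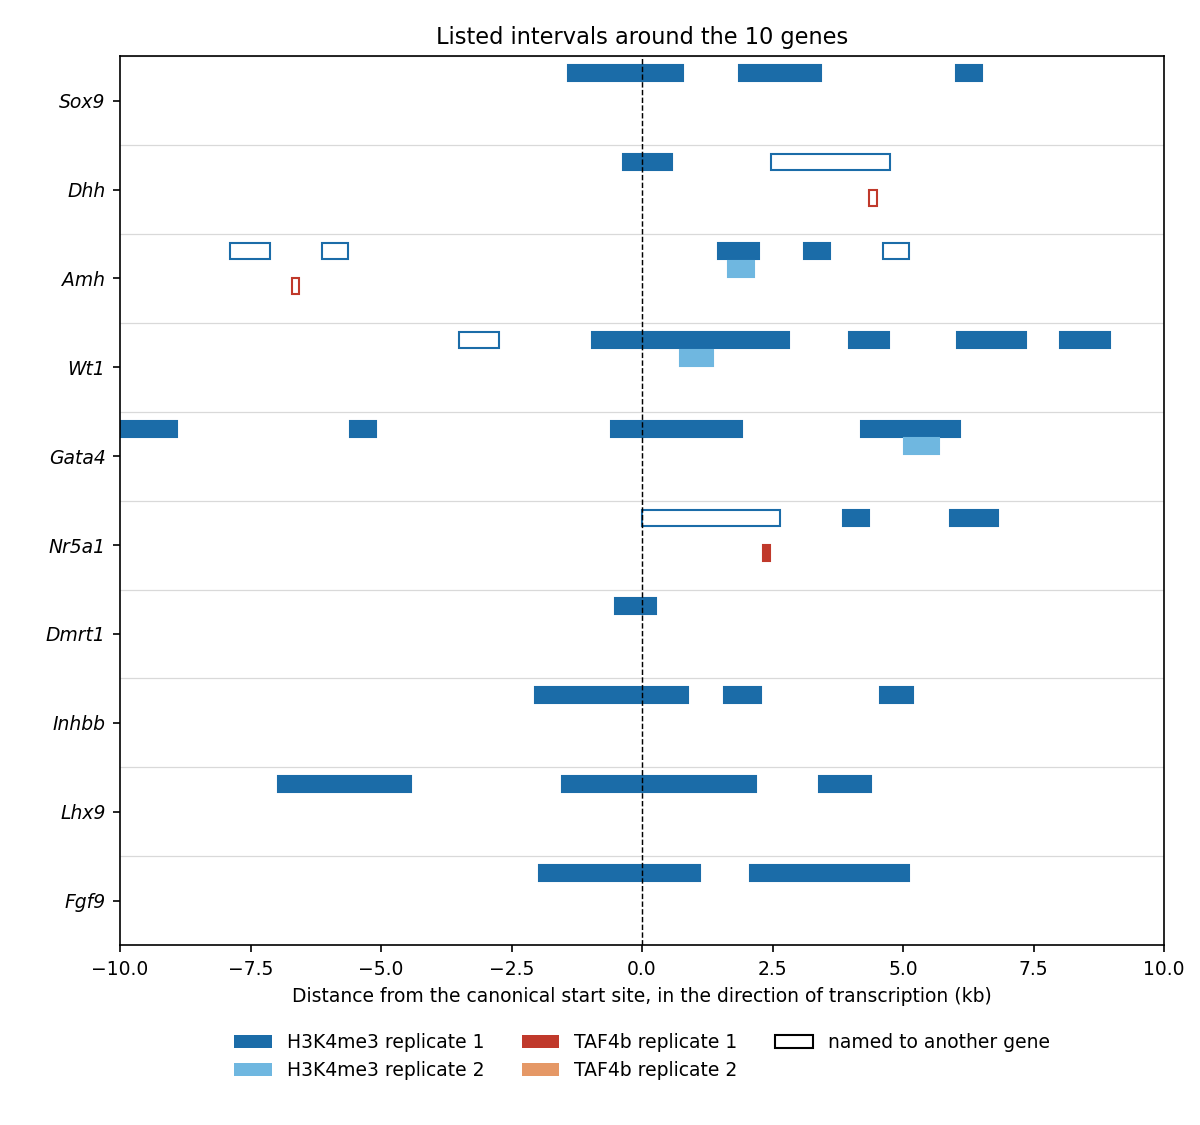
Intervals within 10 kb of the canonical start site of each gene (dashed line), drawn to scale in the direction of transcription in kb, with 1 lane for each of the 4 lists; filled boxes are rows named to the gene and open boxes are rows named to another gene. H3K4me3 replicate 1 covers the start of 8 genes, the Amh regions lie past the start, and the only TAF4b box filled in this window is that of Nr5a1.

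Wt1, a zinc finger factor needed for the gonad to form, had the widest region of the group. It spanned chr2:104955673-104959437 (3764 bp, width rank 174 of 64891, score 229.6, score rank 422) and covered 4 of the 7 annotated Wt1 start sites. The annotation gave it to the promoter of Wt1os, the antisense RNA gene beside Wt1, with Wt1 as the nearest promoter, so the mark cannot be assigned to either gene alone. By the annotation transcript alone the widest Wt1 region was 1316 bp, and the median over the 10 genes fell from 2358 to 1760 bp. A further 9 regions were named to Wt1 in this list, from 500 to 1316 bp wide, among them a promoter region of 758 bp over 2 more start sites, and reaching 61755 bp past the canonical start. The protein-coding genes with the nearest widths in this list, a likeness in width in 1 library, were Lbx1 and Slco5a1 (3766 bp each) and Wnk1 (3770 bp) above and Ggta1 (3758 bp), Pde10a (3756 bp) and Foxf2 (3755 bp) below. Of these 6 genes, Wnk1 had a TAF4b promoter peak in replicate 1.

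Lhx9, a LIM homeobox factor of the early gonad, had the highest score of the group. Its region at chr1:138767975-138771694 was 3719 bp wide (width rank 188) with a score of 245.9 (score rank 303), and covered 3 of 6 start sites. Its centre lay 333 bp into the gene by the deposited distance, and its deposited class was exon. Upstream of it, a promoter region of 2542 bp (score 240.0, score rank 351) covered 2 more start sites. Gata4, a zinc finger factor upstream of Sry and Amh, had a 2512 bp promoter region (width rank 1217, score 199.7) and intronic regions of 2461 and 1603 bp. Another 1889 bp region (score 152.0) lay 5148 bp past its start. All of these lay in the replicate 1 list.

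Nr5a1, which encodes SF1, the nuclear receptor of steroid-producing and supporting cells, had no promoter region by the annotation. Only exonic regions of 914 and 500 bp were named to it. A region of 2636 bp (chr2:38602002-38604638, width rank 977, score 184.8, score rank 1084) was named to the antisense gene Nr5a1os alone, although it covered 10 of the 13 annotated Nr5a1 start sites and ended 4 bp short of the canonical start. Counting regions over any annotated start site in place of the deposited class gave 9 of 10 genes with H3K4me3 replicate 1, against 64.4% of protein-coding genes. By that count Amh was the gene without a region. The other lists gave 1 gene in H3K4me3 replicate 2 (Wt1, against 5.49%), 1 in TAF4b replicate 1 (Nr5a1, against 20.0%) and 0 in TAF4b replicate 2 (against 2.87%). Widening to 1000 bp on either side of a start left the 4 counts at 9, 1, 1 and 0, while the shares of protein-coding genes were 72.0%, 7.31%, 29.0% and 4.13%.

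Sox9, the SRY target that sets the Sertoli fate, had a 2203 bp promoter region (chr11:112671584-112673787, width rank 2232, score 129.7, score rank 4533) over its single annotated start. The nearest promoter to its centre was that of another gene, BC006965. A second region of 1576 bp (score 68.6) lay 2639 bp past the start, and another, of 500 bp, at the end of the gene. Dmrt1, a factor that keeps Sertoli cells male and also works in germ cells, had the narrowest widest region of the 10, at 780 bp (chr19:25482468-25483248, width rank 32342, score 53.7). It was the only region named to Dmrt1 and covered all 3 annotated start sites.

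The secreted factors split in width. Fgf9, which maintains Sox9 in the male gonad, had promoter regions of 3085 bp (score 214.6, score rank 571) and 3052 bp (score 193.8, score rank 871) that were separated by less than 1000 bp. Joining regions at most 1000 bp apart gave it a domain of 7095 bp, width rank 21 of 62653 joined regions. Joining also gave Inhbb 4330 bp and Amh 2133 bp and left the widest region of the other 7 genes as it was. Inhbb, the beta B subunit of inhibins and activins, had a 2943 bp promoter region (width rank 588, score 156.5, score rank 2291). Dhh, the Hedgehog ligand of Sertoli cells, had a single region of 938 bp (score 101.4, score rank 9083) over its start. Next to it a 2274 bp region belonged to the promoter of Rhebl1, the adjacent gene. Amh, the hormone that removes the female ducts, had a 782 bp exonic region (chr10:80642539-80643321, score 49.2, score rank 30248) centred 1853 bp past the start. A second Amh region of 500 bp was classed at its transcript end, with Jsrp1 as the nearest promoter.

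Ordered by their widest region, the genes ran from Wt1 (3764 bp) through Lhx9, Fgf9, Inhbb and Gata4 to Sox9 (2203 bp), and then, with no gene between, from Dhh (938 bp) through Nr5a1 (914 bp) and Amh (782 bp) to Dmrt1 (780 bp). Among the 17050 protein-coding genes with any region in this list, 99.1% had a narrower widest region than Wt1, 99.0% than Lhx9, 97.5% than Fgf9, 96.9% than Inhbb, 93.6% than Gata4 and 88.5% than Sox9. For Dhh, Nr5a1, Amh and Dmrt1 the shares were 25.8%, 24.3%, 17.1% and 16.9%. The width of a gene rests on 1 library, so whether neighbours in this order differ could not be judged. With regions at most 1000 bp apart joined, Fgf9 (7095 bp) and Inhbb (4330 bp) stood above Wt1, and Amh (2133 bp) stood next below Sox9, leaving Dhh, Nr5a1 and Dmrt1 under 1000 bp. The place of Nr5a1 holds only for the rows named to it, since the region over its starts was 2636 bp wide.

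**Figure D2:**
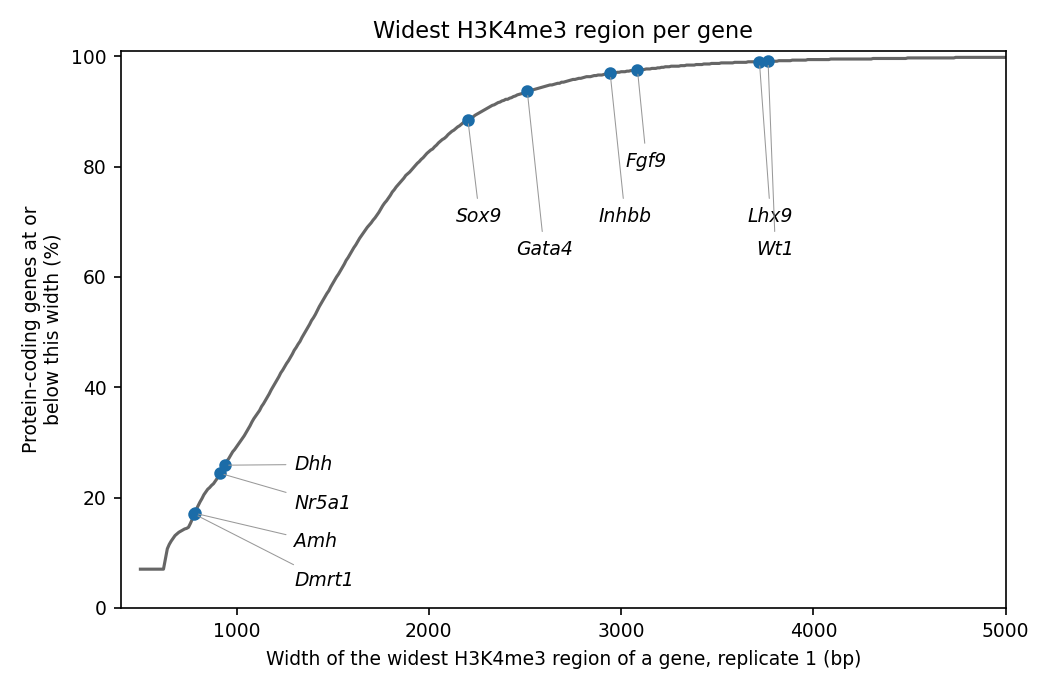
Share of protein-coding genes (%) whose widest H3K4me3 region in replicate 1 is at or below the width on the horizontal axis (bp), as a grey line, with the 10 genes as points on it. Without joining of regions, 4 points lie from 780 to 938 bp and 6 from 2203 to 3764 bp.

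Base composition in the 1001 bases around the canonical start varied among the genes. The observed over expected CpG ratio, which is high in CpG islands, was 0.983 for Fgf9, 0.794 for Inhbb and 0.791 for Sox9, and 0.132 for Amh and 0.231 for Nr5a1, with a median of 0.575 over protein-coding genes. Amh and Nr5a1, the genes without a promoter region by the annotation, had the lowest ratios of the 10. Dmrt1, with the narrowest region, had 0.683, and Wt1, with the widest, 0.548. Across the 10 genes the ratio and the length covered by regions within 5 kb of the start had a Pearson's r of 0.491 and a Spearman's rho of 0.539. These genes are not independent replicates, the regions come from 1 library, and the covered length includes regions named only to other genes. These were a Rhebl1 region at Dhh, the 2636 bp Nr5a1os region within the 3136 bp at Nr5a1, a 785 bp Wt1os region at Wt1 and part of a Jsrp1 region at Amh.

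H3K4me3 replicate 2 named 3 of the 10 genes, where 7.46% of protein-coding genes were named by any row. A promoter region was listed for 1, Wt1, against 4.78% of protein-coding genes, and by the annotation transcript alone for 0. The Wt1 region was 634 bp wide (chr2:104957353-104957987, score 111.2, score rank 816 of 1730) and lay inside the replicate 1 region of 3764 bp. Gata4 had a 678 bp region (chr14:63477867-63478545, score 131.4, rank 424) inside its 1889 bp region downstream of the start, and its promoter was not listed. Amh had a 500 bp region (chr10:80642731-80643231, score 106.1, rank 1042) inside its 782 bp region. Sox9, Dhh, Nr5a1, Dmrt1, Inhbb, Lhx9 and Fgf9 were not listed.

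The genes in the replicate 2 list did not follow the order of the replicate 1 scores. Wt1 and Gata4, listed in replicate 2, had best replicate 1 scores of 229.6 and 199.7, although the Gata4 region that overlaps replicate 2 had 152.0. Lhx9 (245.9) and Fgf9 (214.6) were not listed, while the Amh region (49.2) was. The GC content of the 3 replicate 2 regions was 70.3% (Amh), 70.3% (Gata4) and 69.0% (Wt1), and the median of that list was 64.7%. In replicate 1 the list median was 51.3%, and the regions that overlap replicate 2 had 67.6% (Amh), 58.8% (Gata4) and 58.5% (Wt1). Among regions with no replicate 2 region, the 3719 bp Lhx9 region had 49.7%, below these 3, while Dhh had 60.1%, the 2943 bp Inhbb region 62.1% and the 500 bp Nr5a1 region 64.9%, all above Gata4 and Wt1. Each GC content was taken over the whole region, and these regions ran from 500 bp (Nr5a1) to 3764 bp (Wt1), so the values are not like for like. The part of base composition in which genes were listed was not tested. Because replicate 2 holds so few regions, the widths in it do not check the order seen in replicate 1.

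**Figure D3:**
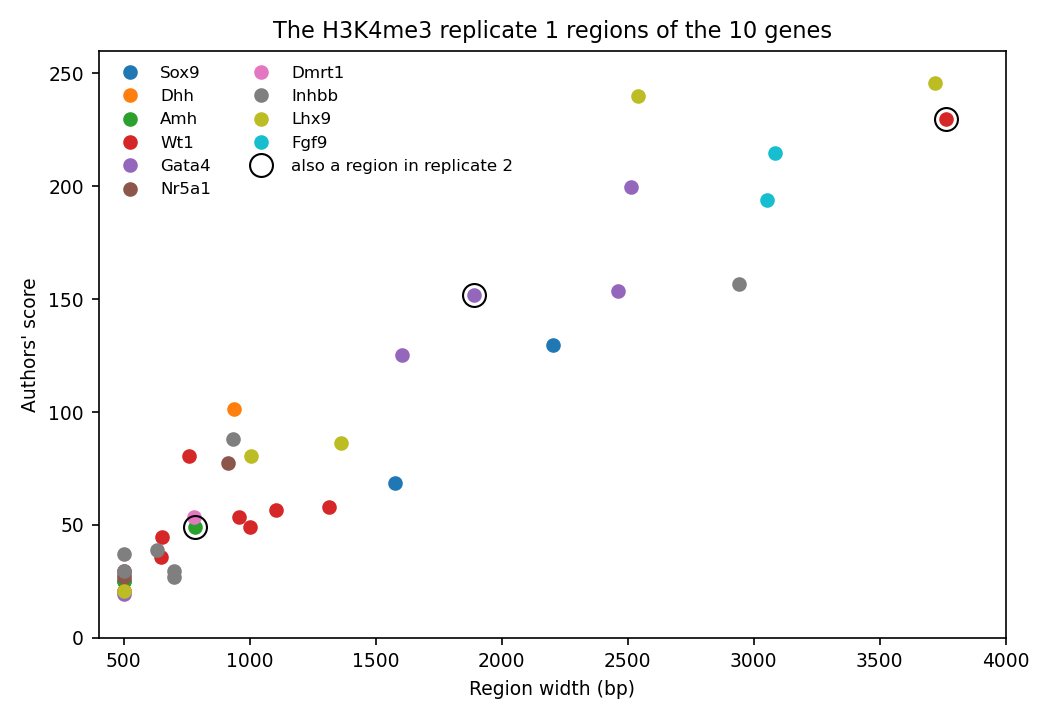
Width (bp, horizontal) and authors' score (vertical) of the 39 H3K4me3 replicate 1 regions named to the 10 genes, coloured by gene, with a ring around the 3 that overlap a region of replicate 2. The ringed regions have scores of 229.6 (Wt1), 152.0 (Gata4) and 49.2 (Amh), and the Lhx9 region with the highest score has no ring.

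TAF4b was listed at the promoter of 1 of the 10 genes in replicate 1, where 24.9% of protein-coding genes carried such a peak. In replicate 2 it was listed at 0, against 3.55% of protein-coding genes. The 1 gene was Nr5a1, by the nearest promoter, and by the annotation transcript alone the count was 0. Its peak lay at chr2:38602191-38602333, 16 bp upstream of the nearest promoter by the deposited distance, and was classed as promoter of Nr5a1os. It covered 3 of the annotated Nr5a1 start sites and lay 2380 bp past the canonical one, within the 2636 bp H3K4me3 region of the same replicate. Its score of 7.44 was the third lowest value that occurs in the list, shared by 170 peaks, with 66 of 7861 peaks lower and a list median of 14.9. Its GC content was 74.1%, that of the Inhbb peak 60.8% and that of the Lhx9 peak 59.4%, against a list median of 62.9%.

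Both other TAF4b rows lay away from promoters of the 10 genes, and any row was found for 3 of 10 genes against 29.0% of protein-coding genes. The Inhbb peak, printed above, lay 21534 bp upstream of Inhbb with a score of 9.93 (rank 6002), inside an H3K4me3 replicate 1 region of 932 bp (score 87.9). Inhbb is the nearest gene by the deposited annotation, while in GENCODE M39 the start of Gm33490, a long non-coding RNA gene, lies 49 bp from the peak centre. The Lhx9 peak was classed at a transcript end, 10897 bp past the canonical start and 2127 bp from the nearest annotated start, also of Lhx9, with a score of 8.44 (rank 6986). No H3K4me3 region of replicate 1 lay within 6438 bp of it. All 3 scores were below the median of their list.

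For the other 7 genes the nearest TAF4b peak of replicate 1 was named to another gene. It lay 4427 bp from the Dhh start, at the Rhebl1 promoter, and 6642 bp from the Amh start, at the Plekhj1 promoter. From Fgf9 it lay 73285 bp away, from Dmrt1 100603 bp, from Wt1 109180 bp, from Gata4 340405 bp and from Sox9 902249 bp. The median distance from the canonical start to the nearest peak centre was 47410 bp over the 10 genes and 45978 bp over protein-coding genes. In replicate 2 the nearest peak lay between 17088 bp (Dhh) and 6792540 bp (Dmrt1) away, and none was named to any of the 10 genes (0 of 10, against 3.80% of protein-coding genes with any row).

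H3K4me3 and TAF4b at a promoter were also read together. Of 10567 protein-coding genes with an H3K4me3 replicate 1 promoter region, 39.3% had a TAF4b promoter peak in the same replicate, and of the 8 genes of this group with such a region, 0 did. In TAF4b replicate 2 the share was 5.82%, and again 0 of the 8. The deposited class leaves Nr5a1 out of the 8. By intervals over any annotated start in replicate 1, 1 of 9 genes, Nr5a1, had both H3K4me3 and TAF4b, against 28.3% of the 14001 protein-coding genes with H3K4me3 over a start. By width of the promoter region, the TAF4b share over all such genes was 32.0% from 500 to 999 bp, 41.9% from 1000 to 1999 bp, 46.0% from 2000 to 2999 bp and 33.6% from 3000 bp. In the narrowest class lay Dhh and Dmrt1, in the class from 2000 bp Sox9, Gata4, Inhbb and Lhx9, and in the widest Wt1 and Fgf9. The classes were set after the widths of these genes had been seen, and no test of the difference was run.

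Lists of other cell types were read in the same way in replicate 1, against 48.6% of protein-coding genes with an H3K4me3 promoter region and 24.9% with TAF4b there. Of 22 other Sertoli and sex determination genes, 10 had an H3K4me3 promoter region and 1, Gadd45g, a TAF4b promoter peak (score 16.4, rank 3311). Among 9 genes of granulosa cells and ovary determination the counts were 5 and 1, the TAF4b peak being that of Ctnnb1 (score 13.9), which is broadly used in Wnt signalling. Of 8 Leydig genes 3 had H3K4me3 and 0 TAF4b, and of 7 peritubular, endothelial and macrophage genes the counts were again 3 and 0. With groups of 7 to 22 genes, most of these H3K4me3 counts lie near the share of all genes. An H3K4me3 row of any class was found for 19 of the 22 other Sertoli genes (all but Sry, Cst9 and Ptgds), 8 of the 9 granulosa genes (all but Foxl2), 5 of the 8 Leydig genes and 6 of the 7 peritubular, endothelial and macrophage genes, against 78.4% of protein-coding genes. Of the Leydig genes, the widest region was 2645 bp for Gli1, 2120 bp for Ptch1, 1456 bp for Insl3, 941 bp for Cyp11a1 and 812 bp for Lhcgr, and Star, Hsd3b1 and Cyp17a1 had none. From these lists, H3K4me3 of somatic cells carried through the sort and H3K4me3 of the germ cells cannot be told apart in these lists.

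The germ cell genes are given beside the 10 genes by value. Their TAF4b promoter peaks had scores of 23.3 for Dazl and Tdrd9, 22.3 for Mael and Mov10l1, 20.8 for Ddx4, 19.4 for Piwil2, 17.4 for Dnd1 and 9.43 for Sall4, all above the 7.44 of Nr5a1. Their promoter regions had a median of 1005 bp over 7 genes and ran from 500 to 1593 bp, so that Dhh (938 bp) and Dmrt1 (780 bp) lay within that range and the other 6 genes above it. Of 8 housekeeping genes, 6 had a promoter region (median 2318 bp), against 48.6% of protein-coding genes, and 4 a TAF4b promoter peak, against 24.9%. In 4 of the 8 the promoter region was 2000 bp wide or more, against 8.44% of protein-coding genes, so such widths are not particular to the 10 genes. In TAF4b replicate 2 a promoter peak was listed for 0 of 15 germ cell genes and 0 of the 10 genes, against 3.55% of protein-coding genes. The contrast between these 2 groups in replicate 1 therefore has no second library behind it.

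**Figure D4:**
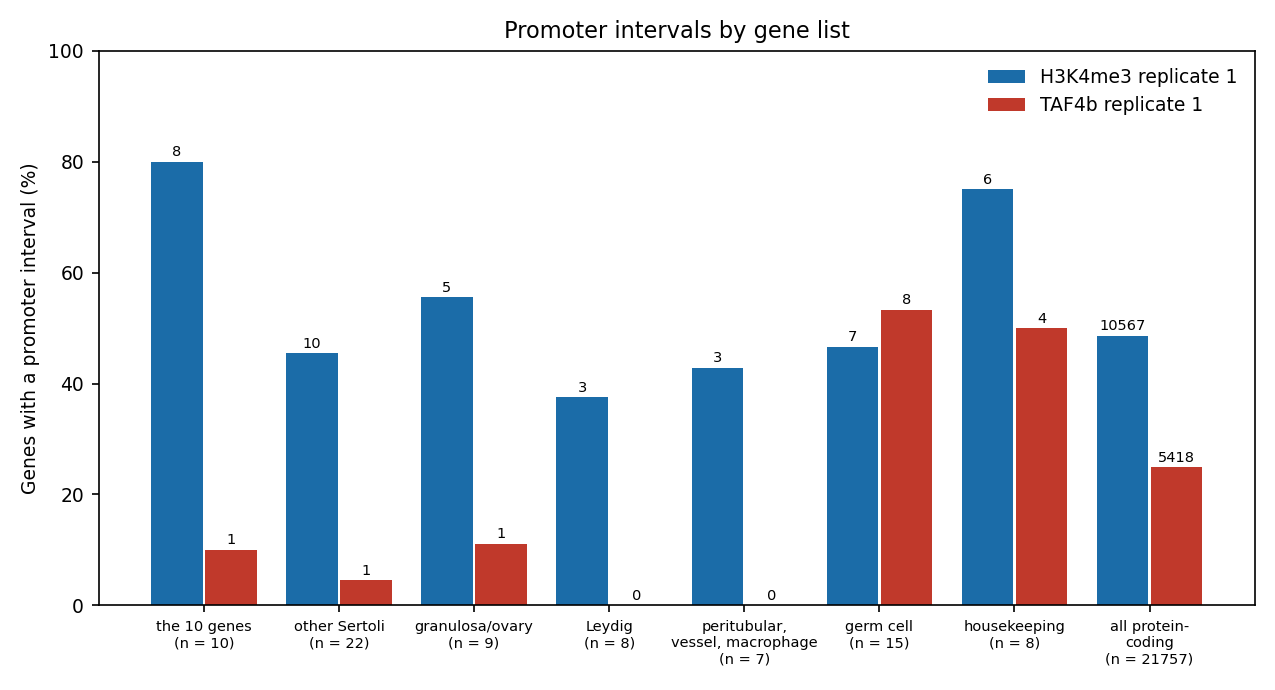
Share of genes (%) in each list with an H3K4me3 (blue) or TAF4b (red) promoter interval in replicate 1, with the number of genes above each bar and the list size below it. The 10 genes have 8 and 1, the 15 germ cell genes 7 and 8, and all 21757 protein-coding genes 10567 and 5418.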

How the data were processed

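TAF4b and H3K4me3 CUT&RUN interval lists of E16.5 prospermatogonia were used, 1 list per library and 2 libraries per antibody, grouped by sample title. The H3K4me3 lists were annotated by the authors with annotatePeaks of HOMER against GRCm39 and Ensembl 103, per the file headers. The submitters' processing notes also name Trim Galore 0.5.0, Bowtie2 2.3.0, SAMtools 1.9 and HOMER 4.10, with no role given, and the build GRCm39 for all samples. Caller settings are not given in the sources used here. The deposited score has no stated normalization. The deposited focus ratio, a fraction in the TAF4b lists, was not used.

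Transcripts were matched to GENCODE M39, which held 98.6% to 99.2% of the nearest-promoter identifiers, and 0 unmatched rows lay within 10 kb of the 10 genes. Widths are End minus Start. Start sites, base composition and sequences came from GENCODE M39 and the GRCm39 genome. The canonical start is that of the transcript tagged Ensembl canonical. Analysis used Python 3.11.15 with pandas 2.3.3 and numpy 2.4.6, and interval assignment was checked on simulated data.

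All results are descriptions without a test. With 2 libraries per antibody and lists of such unequal size, replicates are given side by side. The 10 genes, the other gene lists, the motifs and the alternatives were chosen with earlier results of these data known. All 10 genes are named, with, from the other lists, those with a TAF4b promoter peak or a replicate 2 H3K4me3 region, and the 6 genes nearest in width to the widest. Some results under this rule, and those of a further motif searched, are not reported here. Other genes named were chosen after their values were seen. Counting a promoter row by either its annotation or its nearest transcript, the width limits and classes, the 5 kb window and the base composition were likewise settled after the rows had been seen. Alternatives were a score threshold, equal list sizes, assignment by start site, joined regions, leaving out each replicate and, added after seeing the data, assignment by the annotation transcript alone.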

Additional observations from a re-analysis of the deposited data

How the results depend on the processing

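Of 65 alternative counts, 37 stayed within 1.5 times the main count and 28 moved. The median width in replicate 1 (2358 bp) ranged from 1760 to 3402 bp over the alternatives and that in replicate 2 (634 bp) from 589 to 656 bp. The SD of widths, 1219 bp, comes from these 2 medians alone and is no test of stability. With H3K4me3 replicate 1 reduced to the size of replicate 2, 4 genes kept a promoter region and 4 any region (main counts 8 and 10), on 6 rows in place of 39. TAF4b replicate 1 rows fell to 0 genes, at promoters and in all (main counts 1 and 3), in the higher-scoring 50% and with equal numbers of intervals. Assignment by a start site, by 1000 bp around it or by 50% overlap gave 1 gene for TAF4b replicate 1 in place of 3, 1 gene and 1 row for H3K4me3 replicate 2 in place of 3, and 12, 16 and 15 rows for H3K4me3 replicate 1. The higher-scoring 50% left 24 rows there. With the annotation transcript alone, chosen after seeing the data, TAF4b replicate 1 had 0 promoter genes and 1 gene in all, and H3K4me3 replicate 2 had 0 promoter genes. Leaving out each replicate gave 1 to 8 genes with an H3K4me3 promoter region, 3 to 10 with any region, 3 to 39 rows, and 0 to 1 and 0 to 3 genes for TAF4b. The median width was 634 bp without replicate 1 and 2358 bp without replicate 2. A list cut by score can only keep or lower a count. In the higher-scoring 50%, H3K4me3 replicate 1 kept 8 genes with a promoter region and 10 with any region. The cause of each change was not tested. No paired analysis was possible because the results come from no test. The unknown depth limits every statement that an interval is not listed.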

Other observations

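Of the 22 genes of the other Sertoli and sex determination list, 10 had an H3K4me3 replicate 1 promoter region, against 48.6% of protein-coding genes. These regions had a median width of 1540 bp. It was 2527 bp over 8 of the 10 genes and 1367 bp over protein-coding genes with such a region. Of the 22, 3 had one of 2000 bp or more, against 8.44% of protein-coding genes. Genes of that list with regions as wide as those of the 10 genes included Pdgfa (4009 bp at its promoter), Six4 (3852 bp) and Gadd45g (3357 bp) in H3K4me3 replicate 1. Six4, a homeobox gene that acts upstream of Sry, was also named in H3K4me3 replicate 2, by a region of 626 bp. Gadd45g, an activator of the kinase pathway that induces Sry, had its widest region outside the promoter class and a TAF4b promoter peak, so that it and Nr5a1 were the genes with a TAF4b promoter peak in replicate 1 among the 32 genes of both lists together, where 24.9% of protein-coding genes had such a peak. In TAF4b replicate 2 neither list had any, against 3.55% of protein-coding genes. Zfpm2, the Gata4 cofactor, had a 2775 bp promoter region, and Cbx2, a Polycomb subunit needed for male development, a 2012 bp one.

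Runx1 of the granulosa list had a 626 bp promoter region in H3K4me3 replicate 2, and in replicate 1 a promoter region of 938 bp and a region of 3200 bp of another class. From the germ cell list, Sall4 (625 bp, at the promoter) and Utf1 (500 bp) were named in replicate 2. Among the housekeeping genes TAF4b promoter peaks were listed for Ppia (score 27.3), Eef2 (22.8), Actb (20.8) and Tbp (19.9) in replicate 1, and for Eef2 also in replicate 2.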
